A study of Mus musculus with 8 samples.

Results

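Cation-chloride cotransporters and the kinases that control them were followed in nuclei of cortical GABAergic neurons, the inhibitory neurons of the cortex, from juvenile hypothyroid mice with and without thyroid hormone (TH). The members are 9 genes picked by symbol from the 55341 gene symbols of the count files. They are the inward cotransporter Slc12a2 (NKCC1), the outward cotransporters Slc12a5 (KCC2), Slc12a4 (KCC1) and Slc12a7 (KCC4), the kinases Wnk1, Wnk2 and Wnk3, and the kinases Stk39 (SPAK) and Oxsr1 (OSR1). Of the 9, 8 had enough counts to be tested, and Oxsr1 was at 0 in every library.

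Both groups were made hypothyroid with propylthiouracil (PTU), a blocker of TH synthesis given to the pregnant mothers. PTU mice 9 to 12 (n = 4) received no TH, and PTU+TH mice 13 to 16 (n = 4) received an injection of TH into the peritoneum 24 h before the brain was collected. In both groups a Cre-dependent reporter labelled the nuclei of GABAergic neurons for sorting. There was 1 library of nuclear RNA per mouse and no euthyroid group. The Cre driver, the TH dose and the exact age are not given in the sources used here. Without labels for litter or culture, p-values measure the spread between these libraries. RNA per nucleus and the mix of nuclei in a sort cannot be told apart in such bulk samples.

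Chloride sets what GABA does to a neuron. Slc12a2 protein carries chloride in with sodium and potassium, and the KCC proteins carry it out with potassium, so a neuron with much KCC2 and little NKCC1 is inhibited by GABA. WNK kinases sense low chloride and cell volume and activate SPAK and OSR1, which phosphorylate NKCC1 to switch it on and the KCCs to switch them off. In the maturing cortex the balance moves from NKCC1 towards KCC2. KCC1 and KCC4 are known mainly for the regulation of cell volume and are low in most neurons.

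The bases before the start of transcription are shown for Slc12a4, the only member called by the edgeR quasi-likelihood test, and for Wnk3, the member with the largest difference in the opposite direction, which DESeq2 called and edgeR did not. Both are 250 bases from RefSeq, build GRCm38.p6, read 5′ to 3′ on the strand of the gene. Capitals mark GGGCGG on either strand, the GC box bound by Sp factors, and would mark AGGTCA on either strand, the half-site of TH receptors and related nuclear receptors.
Slc12a4, chr8:105966116-105966365, minus strand: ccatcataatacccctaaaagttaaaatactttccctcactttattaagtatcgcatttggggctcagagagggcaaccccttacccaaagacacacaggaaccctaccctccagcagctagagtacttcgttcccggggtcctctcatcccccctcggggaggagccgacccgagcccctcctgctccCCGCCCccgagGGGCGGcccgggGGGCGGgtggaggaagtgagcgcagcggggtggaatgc
Wnk3, chrX:151197828-151198077, plus strand: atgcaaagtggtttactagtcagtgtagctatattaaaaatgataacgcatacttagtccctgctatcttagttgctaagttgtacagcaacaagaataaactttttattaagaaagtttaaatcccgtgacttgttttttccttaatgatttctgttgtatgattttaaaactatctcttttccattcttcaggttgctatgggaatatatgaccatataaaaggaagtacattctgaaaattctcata
The Slc12a4 window holds 3 GC boxes, which begin 61, 50 and 38 bases before the start and do not overlap, and 60.8% of its bases are G or C. The Wnk3 window holds 0 GC boxes and is 30.4% G or C, against a median of 52.4% over 32851 windows. AGGTCA occurs in neither window and in 14.0% of all windows, and GGGCGG in 32.7%. RefSeq windows were matched for 8 of the 9 members (10 windows). GGGCGG was found in 7 of the 10, from 6 members, and the windows of Wnk1 and Stk39, which were not called, hold 4 matches each, so GC boxes do not set Slc12a4 apart. AGGTCA was found in 1 of those 10, a Slc12a7 window where it begins 42 bases before the start. The paired form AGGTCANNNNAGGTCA, on either strand, was found in 0 of the 10 and in 0.0152% of all windows. These are matches of letters and do not locate a binding site.

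Library totals ran from 21762810 to 29084071 counts. The fit over 17355 genes called 368 of them at an adjusted p under 0.05, and the median log2 fold change over all tested genes was -0.01. The GABAergic markers fixed for the check of the sort summed to between 2290 and 2880 CPM (the count scaled to library size) in every library, against 36.2 to 117 CPM for 6 excitatory neuron markers, 125 to 366 for astrocytes, 94.6 to 195 for oligodendrocytes, 8.27 to 33 for oligodendrocyte precursors, 10.0 to 30.4 for microglia and 33.6 to 158 for endothelium. Of the 38 marker genes tested, 0 were called by the edgeR quasi-likelihood test, 0 by DESeq2 and 0 by limma voom, with 3 at an unadjusted p under 0.05. Dlx1, Gfap and P2ry12 were at 0, and none of them has a base free of other genes. PTU mouse 10 stood apart in endothelial markers (158 CPM against 33.6 to 54.8 in the other PTU mice). Y-linked genes had 0 counts in PTU+TH mice 15 and 16 and summed to 7960 to 11548 counts in the other 6 libraries. The labels give no sex, and since all 4 PTU libraries but only 2 of the 4 PTU+TH libraries had Y-linked counts, sex and treatment are partly confounded in every fold change given here.

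Among the 8 tested members, 1 was called higher in PTU+TH and 0 lower (edgeR quasi-likelihood test), where 1.49% of all tested genes were called higher and 0.634% lower, 2.12% in all. In 3 of the 8 the libraries of the groups did not overlap, 2 higher and 1 lower, against 8.71% of all tested genes in either direction, 4.68% higher and 4.03% lower. At an unadjusted p under 0.05 there were 3 of 8 members, against 12.8% of all tested genes. The median log2 fold change of the members was 0.10 and the median absolute one 0.16, against -0.01 and 0.15 over all tested genes. Slc12a4 rose, and the 2 cotransporters that dominate the neuronal chloride balance, Slc12a2 and Slc12a5, were not called.

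**Figure D1:**
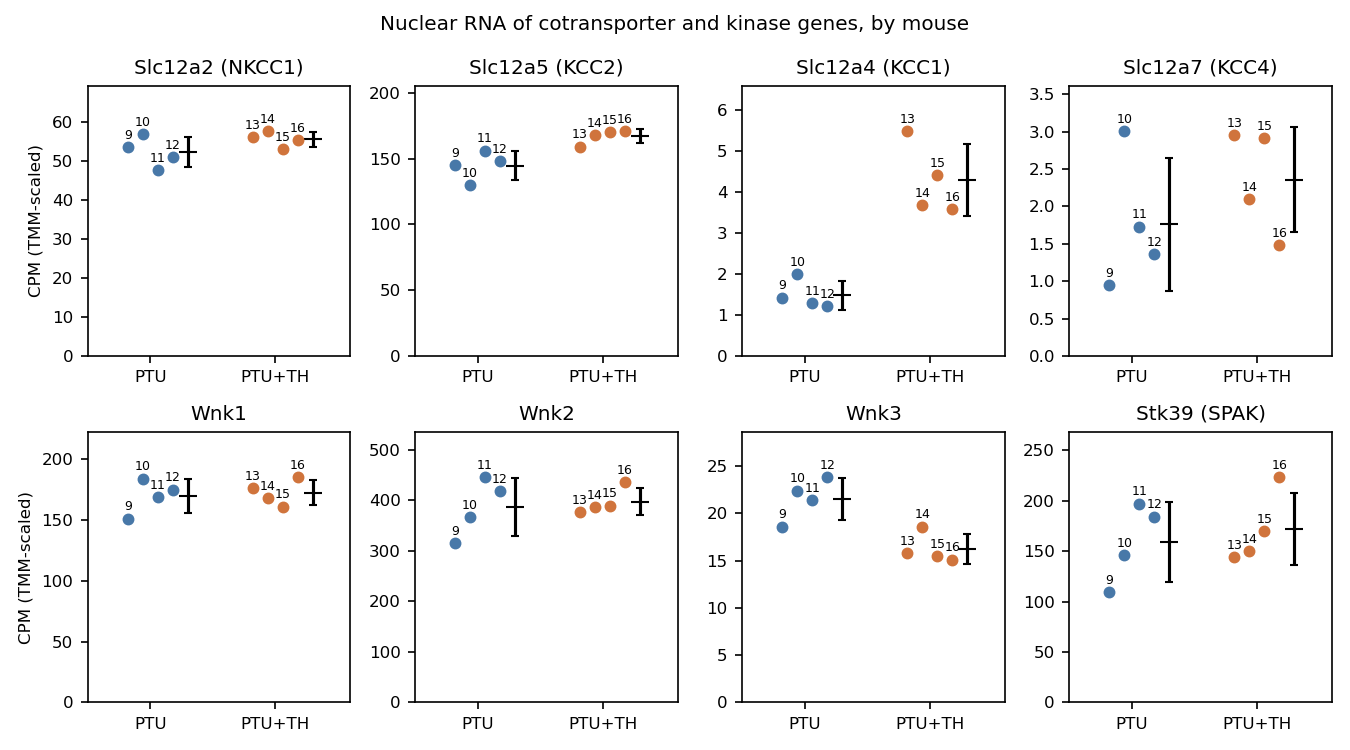
Level of each of the 8 tested members (vertical axis, CPM after TMM scaling, from 0) in PTU mice 9 to 12 (blue) and PTU+TH mice 13 to 16 (orange); each point is a mouse and carries its number, and black marks are mean and SD (n = 4). The groups are apart in Slc12a4, where PTU lies at 1.22 to 1.99 CPM and PTU+TH at 3.57 to 5.48, and narrowly apart in Slc12a5 and Wnk3.

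Slc12a4 (ENSMUSG00000017765.17; GRCm38 chromosome 8, 105943590 to 105966097, minus strand) encodes KCC1, the widely expressed outward cotransporter. It had 39, 53, 26 and 28 counts in PTU mice 9 to 12 and 130, 107, 97 and 75 in PTU+TH mice 13 to 16. After scaling these were 1.42, 1.99, 1.29 and 1.22 CPM in PTU and 5.48, 3.68, 4.41 and 3.57 CPM in PTU+TH. Every PTU+TH mouse was above every PTU mouse, and the lowest PTU+TH value, in mouse 16, was well above the highest PTU value, in mouse 10. The means were 1.48 ± 0.35 and 4.28 ± 0.88 CPM (SD, n = 4 each), a rise of 1.52 on the log2 scale (SE 0.25, 95% interval 0.98 to 2.07, edgeR adjusted p = 0.00639). This is a 2.87-fold rise, with an interval of 1.97 to 4.20. In the 6 libraries with Y-linked counts the log2 fold change was 1.62 and the call was lost (edgeR adjusted p = 0.083).

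The last part of Slc12a4 overlaps the antisense gene Gm16156, so that 89.7% of its body and 69.3% of its exonic bases belong to it alone. Whether counting used strand is not given in the sources used here. Gm16156 was at 3.72, 4.89, 3.36 and 3.98 CPM in PTU and 3.88, 4.74, 3.23 and 4.14 CPM in PTU+TH with overlap (log2 fold change 0.00, 95% interval -0.45 to 0.45). None of the 3 nearest tested genes on either side of Slc12a4 was called by the edgeR quasi-likelihood test. At an unadjusted p under 0.05 were Edc4, with a log2 fold change of -0.28, and Esrp2, at under 1 CPM in every library, with 1.00.

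Cell types other than neurons also express Slc12a4, and their markers are given beside it. In PTU the highest Slc12a4 value came from mouse 10, the library with the most endothelial RNA, and without that mouse the log2 fold change of Slc12a4 was 1.71 (edgeR adjusted p = 0.00788). PTU mice 10 and 9 had the highest Slc12a4 values, 1.99 and 1.42 CPM. They also had the highest PTU sums of astrocyte, oligodendrocyte, precursor and endothelial markers, though not of microglial ones. In PTU+TH the highest Slc12a4 values came from mice 13 and 15, at 5.48 and 4.41 CPM. The summed markers of astrocytes (366 CPM), oligodendrocytes (195), precursors (33), microglia (30.4) and endothelium (117) were all highest in mouse 15. Mouse 13 was next in each, at 259, 125, 18.7, 15.1 and 83.6 CPM. Without mouse 15 the log2 fold change was 1.51 (edgeR adjusted p = 0.026). The summed marker levels of all 5 of these cell types overlapped between the groups, with medians in PTU and PTU+TH of 203 and 227 CPM for astrocytes, 109 and 122 for oligodendrocytes, 18.2 and 15.7 for precursors, 12.1 and 14.7 for microglia and 49.9 and 66.8 for endothelium. Abundant genes weigh most in such sums. Among single tested markers, the log2 fold change was above 0 in 5 of 5 for microglia, 6 of 7 for oligodendrocytes, 4 of 5 for astrocytes, 3 of 4 for precursors, 2 of 6 for endothelium and 6 of 6 for excitatory neurons. For GABAergic neurons it was above 0 in 2 of 5. C1qa, a complement gene of microglia, had means of 0.786 and 1.71 CPM in PTU and PTU+TH (2.12-fold, unadjusted p = 0.0189, edgeR adjusted p = 0.247). Mobp, a myelin gene of oligodendrocytes, had means of 2.59 and 6.48 CPM (2.46-fold, unadjusted p = 0.0433, edgeR adjusted p = 0.364), and its highest value was 12.9 CPM in mouse 15. Both overlapped between the groups and did not pass over all genes. The third marker at an unadjusted p under 0.05 was the GABAergic Dlx6os1, with a log2 fold change of -0.30 (unadjusted p = 0.0122, edgeR adjusted p = 0.203). Its groups did not overlap, at 204 to 275 CPM in PTU and 188 to 196 CPM in PTU+TH. The part of these cell types in the Slc12a4 difference was not tested.

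Slc12a4 remained a minor part of the cotransporter RNA after its rise. Per kb of exon not shared with another gene, it made up 2.02% ± 0.56 of the summed level of the 4 members of its family in PTU and 4.97% ± 1.09 in PTU+TH (SD, n = 4 each). Slc12a5 made up 78.1% ± 2.93 and 76.9% ± 1.57, and Slc12a2 19.3% ± 2.18 and 17.5% ± 0.76. Slc12a7 stayed at 0.57% ± 0.31 and 0.64% ± 0.20.

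The genes with the profile most like that of Slc12a4 were sought among 9798 tested genes that averaged 10 CPM or more. Likeness was the root mean square difference between log2 CPM profiles over the 8 libraries, each centred on its own mean, with a prior count of 2 that draws in the low values of Slc12a4. The nearest were Gabrd (0.21), which encodes the delta subunit of the extrasynaptic GABA-A receptor, Deptor (0.23), an inhibitor of mTOR, F3 (0.27), the tissue factor of coagulation, Adgra3 (0.27), an adhesion G protein-coupled receptor, and Rgcc (0.28), a regulator of the cell cycle. Gabrd was at 39.3, 43.1, 31.0 and 35.1 CPM in PTU and 97.3, 106, 98.8 and 89.7 CPM in PTU+TH. All 5 were higher in every PTU+TH mouse than in any PTU mouse, which the choice by likeness to Slc12a4 favours.

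Slc12a5 (chromosome 2, 164960802 to 164999731, plus strand) encodes KCC2, the outward cotransporter of neurons. It stood at 145, 130, 156 and 148 CPM in PTU and 159, 168, 170 and 171 CPM in PTU+TH. All 4 PTU+TH mice were above all 4 PTU mice, but mouse 13 exceeded mouse 11 by little. The means were 145 ± 10.8 and 167 ± 5.67 CPM (SD, n = 4 each). The log2 fold change of 0.20 (SE 0.09, 95% interval 0.02 to 0.39) had an unadjusted p of 0.0361 and did not pass over all genes (edgeR adjusted p = 0.335). Its interval reaches from 1.01-fold to 1.31-fold, so a larger rise lies outside it.

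Slc12a2 (chromosome 18, 57878678 to 57946821, plus strand) encodes NKCC1, the inward cotransporter. It was at 53.5, 56.9, 47.7 and 50.9 CPM in PTU and 56.2, 57.7, 53.0 and 55.3 CPM in PTU+TH, and the groups overlapped. The means of 52.3 ± 3.90 and 55.5 ± 1.96 CPM (SD, n = 4 each) gave a log2 fold change of 0.09 (SE 0.09, edgeR adjusted p = 0.78), with a fold between 0.934 and 1.21. It had the smallest spread of the 8 members over all libraries, with a coefficient of variation of 6.2%. Glia and endothelium also express Slc12a2, and mouse 10 had the highest PTU value of it.

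The ratio of Slc12a5 to Slc12a2 counts, in which library scaling cancels, is a description of the outward against the inward cotransporter. It was 2.71, 2.29, 3.27 and 2.91 in PTU and 2.82, 2.91, 3.21 and 3.09 in PTU+TH. PTU mice held both the lowest ratio, in mouse 10, and the highest, in mouse 11, so that the groups overlapped throughout. The mean was 2.79 ± 0.41 in PTU and 3.01 ± 0.18 in PTU+TH (SD, n = 4 each).

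Slc12a7 (chromosome 13, 73733094 to 73816754, plus strand) encodes KCC4. It had the lowest level of the tested members per length, at 0.947, 3.01, 1.73 and 1.36 CPM in PTU and 2.95, 2.10, 2.91 and 1.48 CPM in PTU+TH. The highest value of the 8 came from PTU mouse 10, the mouse with the most endothelial RNA. The log2 fold change was 0.42 (SE 0.36, edgeR adjusted p = 0.728), and leaving out 1 mouse at a time moved it between 0.21 without mouse 9 (0.823) and 0.83 without mouse 10 (0.372). Its 95% interval on the log2 scale, from -0.36 to 1.2, is the widest among the 8 tested members and spans folds of 0.777 to 2.30. The part of the endothelial RNA in these values was not tested.

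Wnk1 and Wnk2, the most abundant WNK kinases here, were at similar levels in both groups. Wnk1 (chromosome 6, 119923969 to 120038672, minus strand), whose protein is the best studied chloride-sensing WNK, was at 151, 184, 169 and 175 CPM in PTU and 176, 168, 161 and 185 CPM in PTU+TH. Wnk2 (chromosome 13, 49036303 to 49148014, minus strand), a WNK that is abundant in brain, was at 315, 367, 445 and 418 CPM in PTU and 377, 386, 389 and 436 CPM in PTU+TH. In both genes the values of the groups overlapped, and PTU mouse 9 was the lowest. Their log2 fold changes of 0.02 and 0.04 had 95% intervals of -0.18 to 0.23 and -0.24 to 0.31, and both changed sign when mouse 9 or mouse 16 was left out, Wnk2 also over the 6 libraries with Y-linked counts (-0.02).

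Wnk3 (chromosome X, 151198078 to 151320152, plus strand) encodes the WNK best known for strong activation of NKCC1 and inhibition of KCC2. It was at 18.6, 22.4, 21.4 and 23.8 CPM in PTU and 15.8, 18.6, 15.5 and 15.1 CPM in PTU+TH. All PTU+TH mice were below all PTU mice, with mouse 14 next to mouse 9 at the same rounded value. The means were 21.5 ± 2.19 and 16.2 ± 1.57 CPM (SD, n = 4 each), with a log2 fold change of -0.40 (SE 0.12, 95% interval -0.67 to -0.14). The unadjusted p was 0.00547, and the edgeR adjusted p of 0.13 did not pass. DESeq2 called it (log2 fold change -0.41, adjusted p = 0.0467), while the edgeR adjusted p over the alternatives lay between 0.0586 and 0.634. Wnk3 is on the X chromosome, and over the 6 libraries with Y-linked counts its log2 fold change was -0.32 (edgeR adjusted p = 0.634).

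The ratio of Wnk3 to Wnk1 counts was 0.124, 0.121, 0.127 and 0.136 in PTU and 0.0898, 0.111, 0.0964 and 0.0817 in PTU+TH. Each PTU+TH mouse was below each PTU mouse, with means of 0.127 ± 0.0062 and 0.0947 ± 0.012 (SD, n = 4 each). An antisense gene, A230072E10Rik, covers the end of Wnk3 and leaves it 76.4% of its body and 36.3% of its exonic bases. That gene was at 2.19 to 3.94 CPM in PTU and 3.04 to 4.76 CPM in PTU+TH, with a log2 fold change of 0.31 (95% interval -0.23 to 0.85).

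Stk39 (chromosome 2, 68210445 to 68472268, minus strand) encodes SPAK, the kinase between the WNKs and the cotransporters. It was at 109, 146, 197 and 184 CPM in PTU and 144, 150, 170 and 223 CPM in PTU+TH. Its values ran from low to high within each group by a factor larger than the difference between the groups, with mouse 9 lowest and mouse 16 highest of all. The means of 159 ± 39.8 and 172 ± 35.9 CPM (SD, n = 4 each) gave a log2 fold change of 0.11 (SE 0.19, edgeR adjusted p = 0.90), and the interval allows a fold from 0.815 to 1.43. The sign changed without mouse 9 (-0.03), without mouse 16 (-0.04) and over the 6 libraries with Y-linked counts (-0.11).

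Oxsr1 (chromosome 9, 119238432 to 119322427, minus strand), which encodes OSR1, the close relative of SPAK, was listed at 0 in all 8 libraries. Its 84.0 kb body lies wholly inside that of Slc22a14, on the same strand, and 0% of it is free of another gene. All 1262 protein-coding genes that lie wholly inside another gene were at 0, among them 677 whose exons touch no exon of another gene, whereas 21.5% of 11724 protein-coding genes that overlap no gene were. The 0 of Oxsr1 is therefore not read as absence. Slc22a14, which encodes an organic ion transporter, was at 15.6, 20.0, 19.2 and 21.4 CPM in PTU and 24.0, 23.8, 20.3 and 23.7 CPM in PTU+TH (log2 fold change 0.27, edgeR adjusted p = 0.39).

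**Figure D2:**
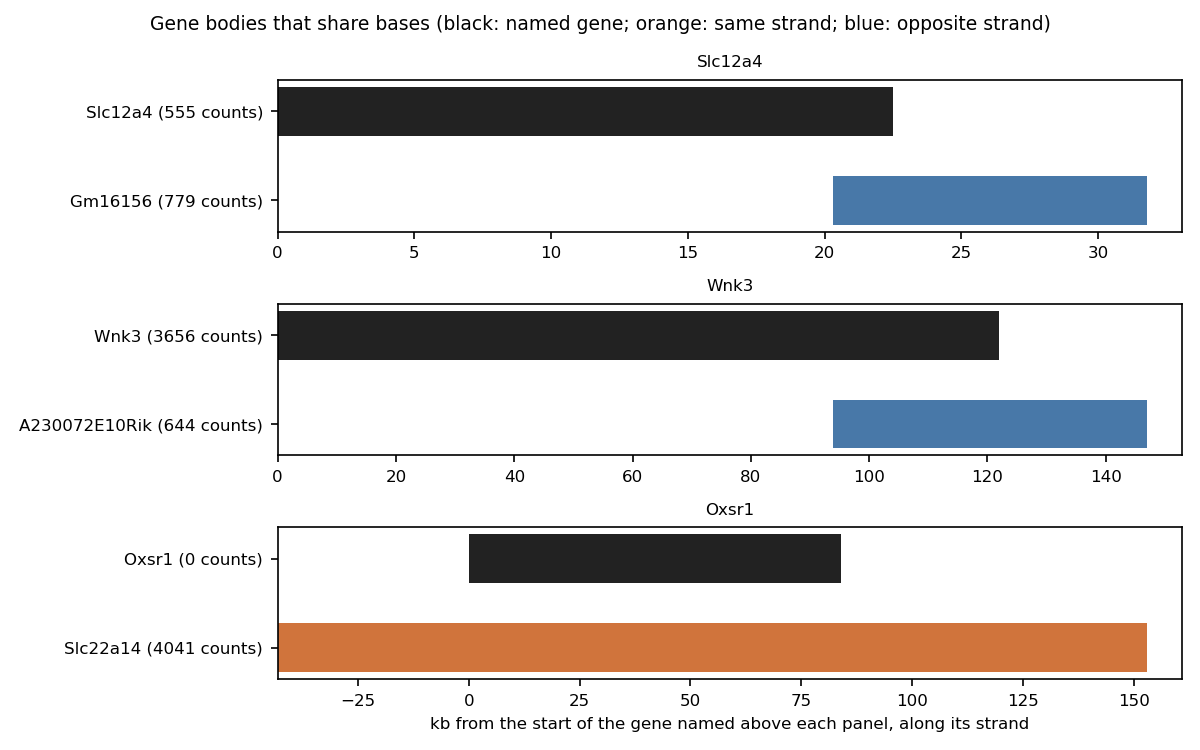
Gene bodies around Slc12a4, Wnk3 and Oxsr1 (horizontal axis, kb from the start of the named gene along its strand; labels give the counts summed over 8 libraries; genes of up to 1 kb are not drawn). Oxsr1 lies wholly inside Slc22a14 and has 0 counts, and Slc12a4 and Wnk3 share only their ends.

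The members span a wide range of levels, which can be compared per length only. Per kb of exon not shared with another gene, the mean over the 8 libraries was 46.2 CPM for Wnk2, 33.4 for Stk39, 20.9 for Slc12a5, 7.5 for Wnk1, 4.94 for Slc12a2, 4.91 for Wnk3, 0.972 for Slc12a4 and 0.163 for Slc12a7. Slc12a2 and Wnk3 were not apart, since Slc12a2 was the higher in 5 of 8 libraries. The other 6 neighbouring pairs kept their order in all 8 libraries, although the ranges over libraries overlapped between Wnk2 and Stk39 and between Stk39 and Slc12a5. Nuclear RNA holds introns, and per kb of unshared gene body the order was Slc12a5 at 4.00 CPM, Wnk2 3.51, Wnk1 1.5, Slc12a2 0.791, Stk39 0.631, Wnk3 0.203, Slc12a4 0.143 and Slc12a7 0.0246. On that scale Slc12a2 exceeded Stk39 in 6 of 8 libraries and Wnk3 exceeded Slc12a4 in 5 of 8, with ranges that overlapped in both pairs. Slc12a4 was below Wnk3 in the PTU means (0.0734 against 0.231 CPM per kb) and above it in the PTU+TH means (0.212 against 0.174). The other 5 neighbouring pairs kept their order in all 8 libraries, with overlapping ranges between Slc12a5 and Wnk2. Slc12a5 and Wnk2 were thus among the 3 highest and Slc12a7 lowest on both scales, and the rank of Stk39, a gene with a body of 262 kb and 4.96 kb of exon, depended on the scale.

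Within the WNK members, Wnk2 made up most of the level per unshared exon kb, with 77.6% ± 1.99 in PTU and 79.9% ± 1.09 in PTU+TH. Wnk1 made up 12.8% ± 1.29 and 12.9% ± 0.58, and Wnk3 9.60% ± 0.76 and 7.23% ± 0.89 (SD, n = 4 each). These shares depended on the scale. Per kb of unshared gene body, Wnk2 made up 66.7% in PTU and 67.8% in PTU+TH, Wnk1 28.9% and 28.8%, and Wnk3 4.48% ± 0.30 and 3.34% ± 0.42. On both scales every PTU+TH mouse had a lower Wnk3 share than any PTU mouse.

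Of 43 further genes of the pathway, in 5 lists, 42 were tested and 0 were called by the edgeR quasi-likelihood test, against 2.12% of all tested genes. At an unadjusted p under 0.05 there were 5 of 42, against 12.8% of all tested genes, so neither count stands apart from the background. Limma voom also called 0, and DESeq2 called 1, Sgk1. With the set of mouse numbers (9, 10, 13 and 14 against 11, 12, 15 and 16) as a covariate, edgeR called Sgk1 and Nrbp2. The log2 fold change was above 0 in 22 and below 0 in 20 of the 42, with a median of 0.00.

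The list of other cotransporters and Wnk4 had 5 of 5 genes tested and 0 called by edgeR. Wnk4, known for its part in salt handling by the kidney, was at 3.90, 3.99, 4.40 and 4.72 CPM in PTU and 7.0, 6.91, 4.72 and 6.52 CPM in PTU+TH. Mouse 15 of PTU+TH was level with PTU mouse 12 to the digits given, and the other 3 PTU+TH mice were clearly higher (log2 fold change 0.57, SE 0.19, unadjusted p = 0.0102, edgeR adjusted p = 0.185). Slc12a8 had a log2 fold change of -0.31 (edgeR adjusted p = 0.616). Slc12a9, an orphan member of the family, was at 53.5 to 66.1 CPM over the 8 libraries (log2 fold change -0.04). Slc12a1 and Slc12a3, the salt cotransporters of the kidney, were at 2.95 to 5.03 and 0.544 to 1.99 CPM.

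Among regulators of the WNK, SPAK and OSR1 kinases, 13 of 13 were tested and 0 called by the edgeR quasi-likelihood test, with Sgk1 called by DESeq2 and both Sgk1 and Nrbp2 by edgeR with the set of mouse numbers as a covariate. Sgk1, a kinase induced by glucocorticoids that acts on WNK4 and ion transport, was at 148, 158, 170 and 181 CPM in PTU and 198, 204, 199 and 228 CPM in PTU+TH. Every PTU+TH mouse was above every PTU mouse (log2 fold change 0.34, SE 0.10, unadjusted p = 0.00416, edgeR adjusted p = 0.111). Nrbp2, a pseudokinase related to the WNKs, was at 124, 128, 111 and 131 CPM in PTU and 112, 108, 87.5 and 85.0 CPM in PTU+TH, with overlap (log2 fold change -0.33, edgeR adjusted p = 0.168). Cab39, whose protein MO25 assists SPAK and OSR1, had a log2 fold change of 0.01 (95% interval -0.17 to 0.20), and Klhl3 and Cul3, which mark WNKs for degradation, had -0.14 and 0.03.

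The 12 chloride channels and exchangers had 11 genes tested and 0 called by edgeR, with a median log2 fold change of 0.02. Lrrc8b, a subunit of the volume-regulated anion channel, had the smallest p (log2 fold change 0.23, edgeR adjusted p = 0.331), followed by Clcn7, a lysosomal exchanger (-0.17, 0.561). Lrrc8e was too low to test, at 0 to 0.495 CPM. Lrrc8a was tested at 0.729 to 2.05 CPM, but 0% of its exonic bases and only 8.99% of its body are free of other genes. Of 5 sodium-potassium pump genes 5 were tested and 0 called by edgeR, with a median of 0.13. The smallest p-values were those of Atp1b3, with a log2 fold change of 0.22 (edgeR adjusted p = 0.412), and Atp1b1, with 0.24 (0.571). Both encode beta subunits, as does Atp1b2, which had -0.04 (0.964).

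Of 8 partners and regulators of KCC2, 8 were tested and 0 called by edgeR, with a median of -0.03. Neto2, an auxiliary subunit of kainate receptors that binds KCC2, was at 218, 209, 229 and 231 CPM in PTU and 261, 288, 244 and 264 CPM in PTU+TH. The groups did not overlap (log2 fold change 0.25, SE 0.10, unadjusted p = 0.0202, edgeR adjusted p = 0.255). Egr4, a transcription factor known to bind the Slc12a5 promoter, had a log2 fold change of -0.20 (95% interval -0.84 to 0.44). Grik2, Epb41l1, Arhgef7, Ckb, Ntrk2 and Gphn lay between -0.09 and 0.06.

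**Figure D3:**
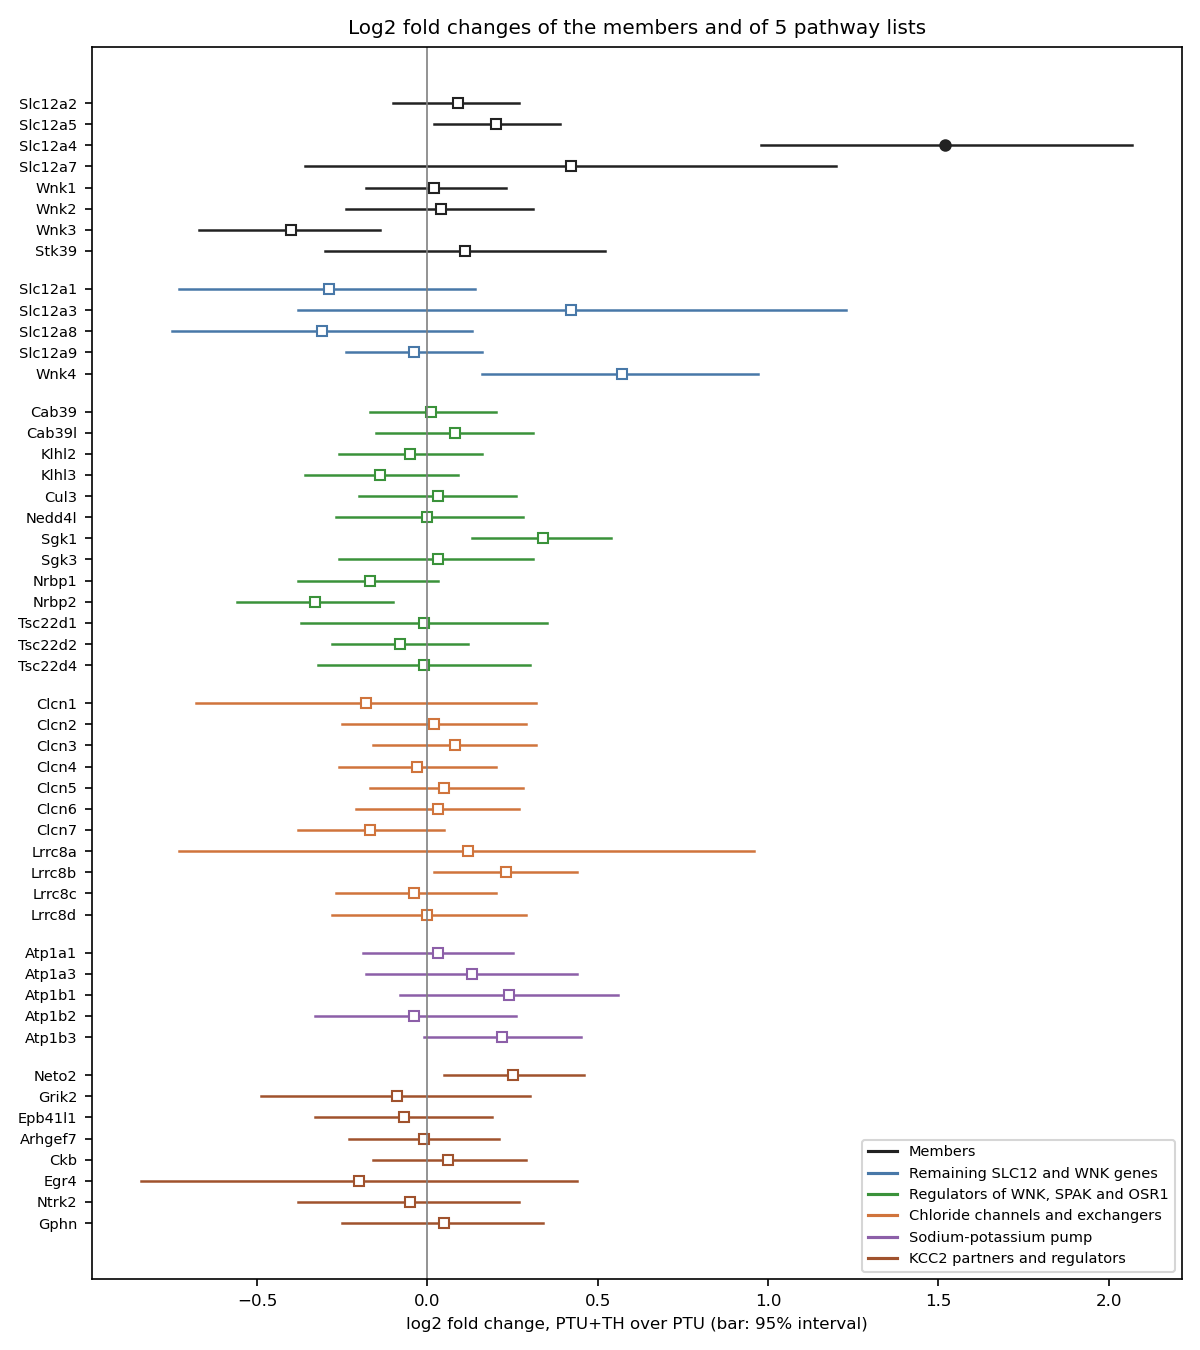
Log2 fold change of PTU+TH over PTU (horizontal axis) with its 95% interval (bar) for the 8 tested members (black) and 42 genes of 5 pathway lists (colours); the filled circle is called and open squares are not. Slc12a4, at 1.52, is the only gene drawn that the edgeR quasi-likelihood test without a covariate called, and the intervals of Slc12a5, Wnk3, Wnk4, Sgk1, Nrbp2, Lrrc8b and Neto2 leave out 0 without passing over all genes in that fit (DESeq2 called Wnk3 and Sgk1).

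**Figure D4:**
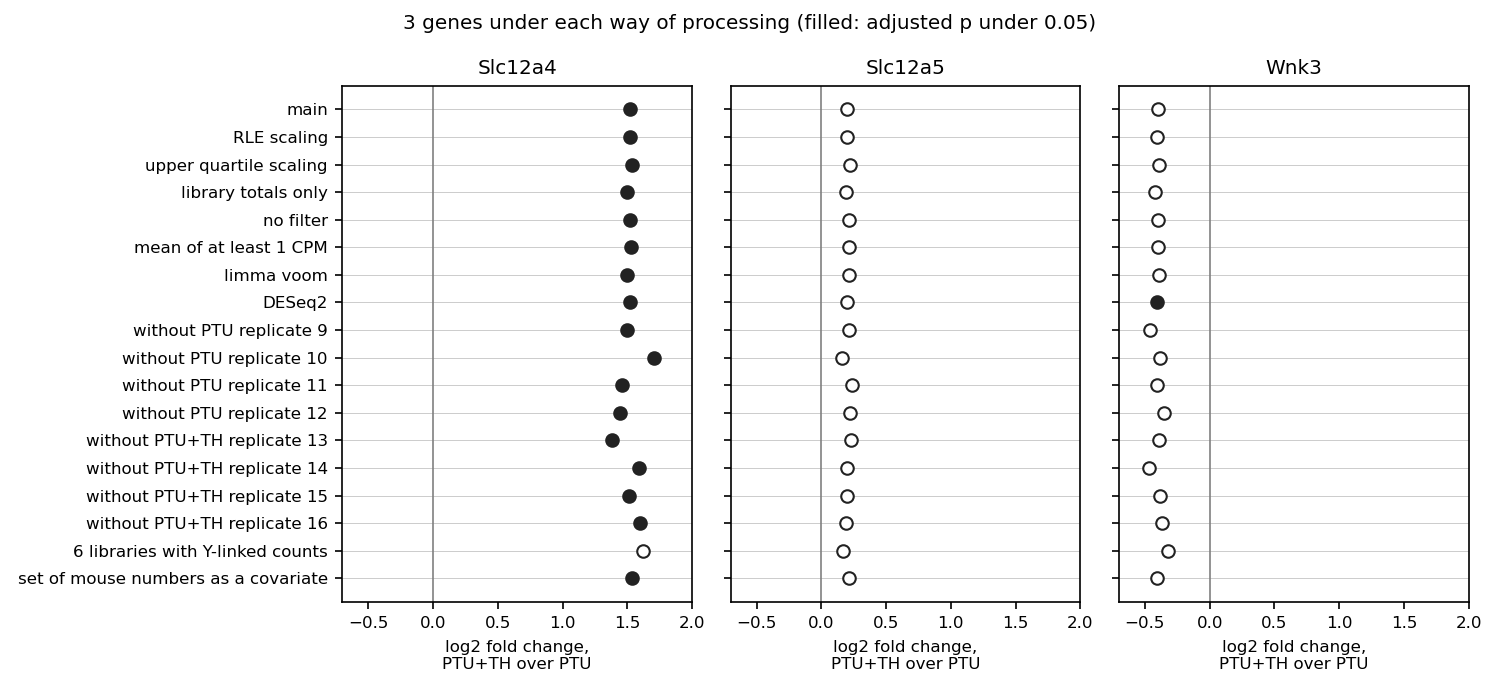
Log2 fold change of PTU+TH over PTU (horizontal axis) for Slc12a4, Slc12a5 and Wnk3 in the fit of the report (main) and under 17 alternatives (vertical axis); filled points have an adjusted p under 0.05. Slc12a4 lies between 1.38 and 1.71 and is filled in all but the 6 libraries with Y-linked counts, Slc12a5 lies between 0.16 and 0.24 and is never filled, and Wnk3 is filled with DESeq2 only.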

How the data were processed

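The authors deposited 1 file per library with whole-number, unnormalized read counts for each gene symbol. The submitters' processing notes list Bowtie2 2.5.3 and build GRCm38 (mm10). The counting program, strand setting and treatment of introns are not given in the sources used here. All 55341 symbols are in GENCODE M21 (GRCm38), which gave positions and shared bases. Rows without a gene name numbered 0.

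The edgeR quasi-likelihood test (version 4.0.16, R 4.3.3, robust, two-sided) was run on these counts after filterByExpr and TMM scaling, with no covariate, and its p-values were adjusted over 17355 genes (Benjamini-Hochberg). Intervals at 95% came from the standard error and the total degrees of freedom of the fit. CPM was computed from the deposited counts. DESeq2 1.42.0 and limma 3.58.1 (voom) were alternatives. Scripts were tested on simulated data.

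All 9 members are named. Of each pathway list the called genes are named, or else the 2 with the smallest p, and genes at 0. A few further genes with a known role (Slc12a1, Slc12a3, Slc12a9, Cab39, Klhl3, Cul3, the remaining KCC2 partners, and the neighbours Edc4 and Esrp2) were named after their values were seen. Lrrc8a and Atp1b2 were also named after their values were seen. For 2 genes of the pathway lists nothing is reported here. Members and lists were chosen with earlier results of these data known.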

Additional observations from a re-analysis of the deposited data

How the results depend on the processing

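No paired analysis was possible because no mouse number occurs in both groups. Against 368 genes called, there were 748 with DESeq2, 642 with the set of mouse numbers as a covariate, which the labels do not call a batch, 601 at an adjusted p under 0.1 and 58 over the 6 libraries with Y-linked counts. Leaving out 1 library at a time gave 182 to 499, with 182 without mouse 15, 209 without mouse 16, 227 without mouse 14, 238 without mouse 13 and 233 without mouse 12. Of the members 1 was called, 2 with DESeq2 (Slc12a4 and Wnk3) and 0 in the 6 libraries, which hold fewer mice. Slc12a4 kept its call in the other 16 of 17 alternatives, with log2 fold changes of 1.38 to 1.71. Uncalled members near 0 changed sign. Without mouse 9 these were Wnk1 (-0.03), Wnk2 (-0.04) and Stk39 (-0.03). Without mouse 16 they were Wnk1 (-0.01), Wnk2 (-0.01) and Stk39 (-0.04), and over the 6 libraries Wnk2 (-0.02) and Stk39 (-0.11). Leaving out single libraries gave -0.03 to 0.07 for Wnk1, -0.04 to 0.11 for Wnk2 and -0.04 to 0.23 for Stk39. The cause was not tested. Another scaling shifted the median log2 fold change over all genes by -0.021 to 0.013. Low counts limit Slc12a4 and Slc12a7 most, and no interval of a member covers reads in shared bases.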
